A study of Homo sapiens with 27 samples.

Results

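The rows described here are marked DNA positions of O6-MeG-seq listed with the lowest scores: every row on chromosomes 1 to 22 with a score of 0 or 1. An aligner gives such scores to reads whose place in the genome is uncertain. The assay captures fragments that carry O6-methylguanine with an antibody and marks the base at which a polymerase stalls. There were 16050852 such rows among 141453181 rows on these chromosomes, and 100035572 rows had the highest score, 42. The score column is not named in the files. Its range is that of Bowtie2 mapping qualities, and Bowtie2 is listed in the submitters' processing notes. The choice of rows used the score alone, not the base, the position or the group.

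All cell libraries came from LN-229, an established human glioblastoma line, which had been transfected with MGMT or kept as transfection control (WT). MGMT encodes the protein that takes the methyl group off O6-methylguanine. Cells received the alkylating drug temozolomide (TMZ) at 1 mM or, as solvent control, 1% DMSO. A single exposure was compared with 3 exposures spaced 4 h apart, and DNA extraction followed 24 h after the initial one. This gave 8 groups of 3 libraries, which the series describes as biological replicates. Naked DNA treated with 1 mM TMZ outside cells gave 3 more libraries, of which replicate 1 came from WT cells that were not transfected, replicate 2 from WT and replicate 3 from the MGMT-transfected line. Because MGMT came from a transfected line, a difference between MGMT and WT is one between these 2 lines.

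An aligner gives a low mapping quality to a read that matches several places in the genome nearly equally well, and reports one of them. Repeated DNA is the usual source of such reads; no repeat annotation was used here, and the kind of repeat was examined only in the densest blocks. Repeated DNA includes the ribosomal RNA genes, which lie in tandem arrays; the alpha satellite of centromeres, built from a monomer of 171 bases; simple satellites rich in the pentamer GGAAT; the TTAGGG repeats of telomeres; and gene families with near-identical copies. TMZ methylates guanine, and its O6 product is formed most readily where the base on the 5′ side is a purine. A row gives a marked position only 1 time per library, however many reads marked it, so a repeat in which nearly every position is marked can rise no further.

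No genome sequence was used. The bases of repeats were read from the rows themselves, all libraries and both strands pooled; where 30322 low-score rows fell inside 33725 RefSeq promoters of GRCh38.p14, 100% of their bases were equal to the promoter's. The 4 stretches are examples from the 91 densest blocks, which together held 12.7% of low-score rows. All are given for GRCh38 on the plus strand, 5′ to 3′. The spacer, the satellite and the 171-base repeat come from 3 of the 12 blocks that held the most low-score rows. The last stretch, from a block that holds DUX4 copies, was chosen after values were seen, as that kind of block held more of the low-score rows under TMZ; it lies in no gene of the table. In the spacer, the 171-base repeat and the stretch of the DUX4 block, capitals mark guanines that follow a purine on either strand, so a capital C is such a guanine on the minus strand. In the pentamer-rich satellite capitals mark GGAAT on either strand.
Ribosomal DNA spacer, chr21:8419186-8419365, within the pseudogene CDC27P10: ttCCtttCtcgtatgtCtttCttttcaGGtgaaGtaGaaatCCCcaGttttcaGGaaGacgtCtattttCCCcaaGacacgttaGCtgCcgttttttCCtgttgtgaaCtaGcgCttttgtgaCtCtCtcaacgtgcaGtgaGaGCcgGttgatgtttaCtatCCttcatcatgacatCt
Pentamer-rich satellite, chr4:49108184-49108363, in no gene of the table: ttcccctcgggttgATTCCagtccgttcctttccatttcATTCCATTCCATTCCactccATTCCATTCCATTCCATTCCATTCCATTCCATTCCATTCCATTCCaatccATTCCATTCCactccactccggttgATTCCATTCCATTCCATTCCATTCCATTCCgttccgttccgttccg
171-base repeat, chr13:16607809-16607872, in no gene of the table: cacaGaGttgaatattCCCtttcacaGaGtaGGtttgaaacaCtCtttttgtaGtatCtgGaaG
Stretch of a DUX4 block, chr10:133688205-133688384, in no gene of the table: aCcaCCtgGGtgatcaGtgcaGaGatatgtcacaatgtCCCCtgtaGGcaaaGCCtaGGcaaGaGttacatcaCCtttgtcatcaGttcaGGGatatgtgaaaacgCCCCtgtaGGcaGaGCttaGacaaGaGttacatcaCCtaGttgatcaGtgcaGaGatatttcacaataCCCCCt
The spacer stretch held 41 capitals in 180 bases and that of the DUX4 block 50 in 180, while the 171-base repeat held 15 in 64. The satellite stretch held 21 copies of GGAAT on one strand or the other. Of 524 fully read pieces of 100 bases from the densest blocks, 55.7% held GGAAT and 5.15% held TTAGGG, each searched on both strands. These pieces do not stand for the blocks evenly, as a piece is fully read only where rows are dense. Pentamer-rich blocks, 47 of the 286 windows in blocks, gave 281 of the pieces, and 4.53% of the remaining pieces held GGAAT. In pieces of pentamer-rich blocks GGAAT stood 5.69 times per piece on average, and in pieces of telomeric blocks TTAGGG stood 15.6 times. Both kinds of block were picked out by these same motifs.

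Libraries differed in ways that the groups do not explain. Positions at bases other than guanine with a score of 30 or more were shared more often between some libraries than others, and the libraries fell into 5 sets by a limit of 1.6 times the median pair. Of the single-exposure libraries, those numbered 1 belonged to set 1 together with the first naked DNA library, those numbered 2 to set 2 and those numbered 3 to set 3. Of the triple-exposure libraries, those numbered 1 belonged to set 2 and those numbered 2 to set 3; number 3 went to set 3 where TMZ was given and to set 4 where solvent was. The other 2 naked DNA libraries formed set 5. What made the sets is not given in the sources used here. Both solvent libraries of set 1 stand apart: 35.8% and 32.3% of their score 42 rows at guanine were also in naked DNA replicate 1, against 1.30% to 1.55% in the other 10 solvent libraries. Their low-score rows at guanine did not stand apart in this way, with 8.87% to 11.7% shared over all 12 solvent libraries. Results are given within the sets, and with and without set 1 where it changes a call or moves a value most. Libraries held 1260434 to 15045995 rows on chromosomes 1 to 22.

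Low-score rows made up from 6.55% to 43.8% of a library. In WT cells after 1 exposure they were 43.8%, 16.5% and 8.25% of rows in the solvent replicates and 26.8%, 15% and 7.87% in the TMZ replicates. In MGMT cells after 1 exposure the values were 41.8%, 18.1% and 10.2% with solvent and 32.1%, 18.2% and 9.11% with TMZ. After 3 exposures, WT cells had 24.9%, 9.47% and 9.30% with solvent and 7.93%, 7.10% and 7.25% with TMZ. The replicate that belonged to set 1 was the highest of its group by a wide margin, and groups overlapped. MGMT cells after 3 exposures had 16.6%, 9.58% and 9.92% with solvent and 8.63%, 6.92% and 9.28% with TMZ, and naked DNA had 9.91%, 6.55% and 6.65%. By set, the share ran from 9.91% to 43.8% in set 1, from 7.93% to 24.9% in set 2 and from 6.92% to 10.2% in set 3. These ranges mix treatments and exposure numbers. Treatments also differed widely within a set, with 24.9% under solvent and 7.93% under TMZ in WT cells of set 2 after 3 exposures.

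**Figure D1:**
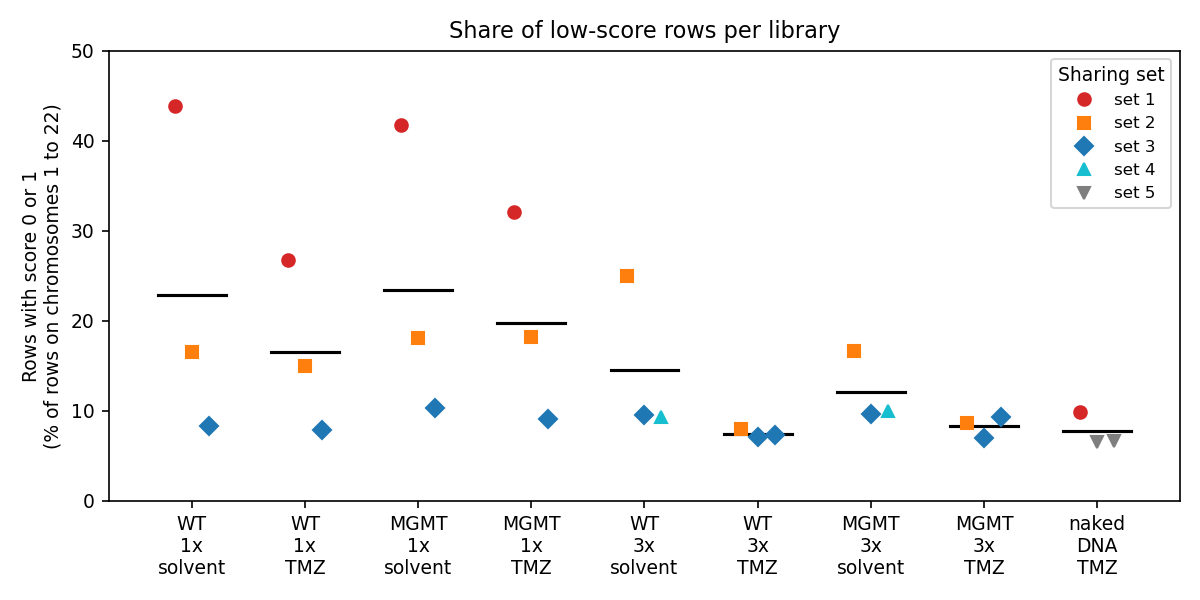
Share of rows on chromosomes 1 to 22 with score 0 or 1, in percent (vertical axis), for the 27 libraries in their 9 groups (horizontal axis). Points are libraries with colour and shape by set, ordered by replicate within a group, and bars are group means; set 1 reached 43.8% and set 3 stayed at or below 10.2%.

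The mean share was 13% ± 8.47 (SD, n = 12) with TMZ and 18.2% ± 12.5 (n = 12) with solvent, a difference of -5.20 percentage points that did not pass (exact permutation test within genotype and exposure number, two-sided, p = 0.221, adjusted p = 0.747 over 27 comparisons). TMZ was the lower in 11 of 12 comparisons of the same line, exposure number and replicate number (exact permutation test within these pairs, p = 0.00098, not adjusted). The call thus depends on whether same-numbered libraries are treated as pairs. They were not, because their correlation exceeded 0.1 in only 6 of 12 treatment pairs, although each library correlated best with its own number in 10 of 12. The difference pointed the same way within set 1 (-13.4 points), set 2 (-6.61) and set 3 (-1.47), and it was -1.33 points with the libraries of replicate 1 left out. Because TMZ changes the share of guanine among rows, the share was also taken over rows at guanine alone (-4.47 points, exact p = 0.162) and at the other bases alone (-5.17 points, exact p = 0.274). Neither passed in this test. Within same-numbered pairs the exact permutation p was 0.00098 at guanine and 0.0039 at the other bases, not adjusted. Cells given TMZ 3 times had 7.85% against 18.2% after 1 time, -10.3 points (exact permutation p = 0.020, adjusted p = 0.180), but the difference was -8.31 points within set 2 and -0.85 within set 3. Without set 1 it was -4.69 points (exact permutation p = 0.040). MGMT and WT cells given TMZ differed by 2.04 points (exact p = 0.550). Naked DNA and WT cells given TMZ, both exposure numbers pooled, differed by -4.29 points (exact p = 0.571), or -2.43 points without set 1 (exact p = 0.333).

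Guanine rose among low-score rows under TMZ in every group. With solvent the share of low-score rows at guanine was 20.3%, 20.5% and 19.5% in WT cells and 21.8%, 20.4% and 19.8% in MGMT cells after 1 exposure. After 3 exposures to solvent it was 20.8%, 20.1% and 20.0% in WT cells and 22.9%, 19.6% and 19.5% in MGMT cells. The 12 solvent libraries thus lay between 19.5% and 22.9%, those of set 1 included. With TMZ given 1 time, WT cells had 36.2%, 39.8% and 49.7% and MGMT cells 29.8%, 31.2% and 41.3%. With TMZ given 3 times, WT cells had 55.7%, 60.1% and 59.0% and MGMT cells 49.1%, 58.0% and 57.0%. No TMZ library overlapped the solvent libraries, and naked DNA was higher than all of them at 64.8%, 64.6% and 64.3%.

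The difference between TMZ and solvent was 26.8 points (47.2% ± 11.2 against 20.4% ± 1.00, SD, n = 12 each; exact permutation p = 1.2e-05, the smallest this design allows; adjusted p = 0.00034). It was 12 points within set 1, 22.8 within set 2 and 34.4 within set 3, and 29.8 points without set 1. The rise was larger after 3 exposures than after 1: 36.0 against 17.6 points, a difference of 18.4 (permutation test of the interaction over 160000 arrangements, p = 0.0029, adjusted p = 0.029 over 10 tests). That test did not use the sets. Set 1, where the rise was smallest, held cells of the single exposure only, and the interaction was not tested without it. Among TMZ libraries alone, 3 exposures gave 18.5 points more than 1 (56.5% against 38.0%; exact p = 0.005, the smallest possible; adjusted p = 0.0675), 16.9 within set 2 and 13 within set 3. MGMT cells given TMZ had 44.4% and WT cells 50.1%, -5.68 points (exact permutation p = 0.10, adjusted p = 0.450), with -6.47, -7.62 and -4.13 points within sets 1, 2 and 3. MGMT was the lower in 6 of 6 comparisons of the same replicate number (exact permutation test within these pairs, p = 0.031, not adjusted). Whether the difference passes thus depends on whether same-numbered libraries are treated as pairs. Their correlation exceeded 0.1 in 9 of 12 genotype pairs, and each library correlated best with its own number in 12 of 12. Naked DNA exceeded the 6 WT libraries given TMZ, both exposure numbers pooled, by 14.5 points (exact p = 0.048, adjusted p = 0.257). Without set 1 that difference was 11.6 points (exact p = 0.143). Naked DNA, at 64.3% to 64.8%, lay nearer WT cells after 3 exposures (55.7% to 60.1%) than after 1 (36.2% to 49.7%). With solvent, MGMT and WT differed by 0.45 points (exact p = 0.535).

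The other bases fell as guanine rose. Thymine was the most frequent base of low-score rows with solvent, at 31.3% to 34.3%, and was 15.5% to 28.8% with TMZ and 10.9% to 11.9% in naked DNA. Cytosine went from 18.8% to 22% with solvent to 5.96% to 6.67% in naked DNA. Adenine changed least between the extremes, from 24.7% to 27.4% with solvent to 17.1% to 18.3% in naked DNA.

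Rows with score 42 of the same libraries had a guanine share of 18.8% to 23.6% in 10 of the 12 solvent libraries, 28% and 44.3% in both solvent libraries of set 1, 32.6% to 63.8% with TMZ and 67.5% to 70.7% in naked DNA. Over the 27 libraries, low-score rows had 3.14 points less guanine than score 42 rows (± 4.80, SD; lower in 18 libraries and higher in 9; permutation test by 100000 sign flips, p = 0.00011). Without set 1 the difference was -1.47 points (permutation p = 0.003). The gap, score 42 minus low score, was 3.83 points ± 2.14 with TMZ and 2.18 ± 6.91 with solvent, which did not differ (exact permutation p = 0.517, adjusted p = 0.812). That comparison turned on set 1: without it the solvent gap was -0.41 points ± 1.15 (n = 10), and TMZ exceeded solvent by 3.38 points (permutation p = 0.00014). In naked DNA the gap was 4.17 points ± 1.47 (n = 3). All 15 TMZ-treated libraries, naked DNA included, had less guanine among low-score rows than among score 42 rows.

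**Figure D2:**
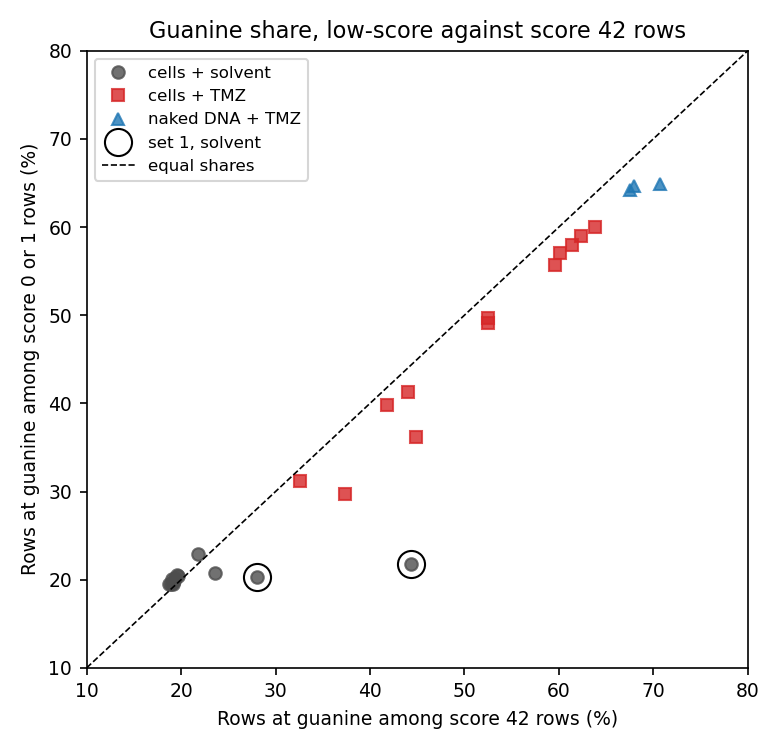
Percent of low-score rows at guanine (vertical axis) against percent of score 42 rows at guanine (horizontal axis), with 1 point per library and a dashed line of equal shares. The TMZ and naked DNA points lie below the line, 10 solvent points gather near 20% on both axes, and the ringed solvent points of set 1 lie at 28% and 44.3% on the horizontal axis.

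The limit of 1 on the score did not fall in a smooth range. Score 0 held 2.04% of rows on average over libraries, score 1 held 12.7%, and just outside the limit score 2 held 0.464% and score 3 held 0.396%; score 42 held 67.3%. The guanine share with TMZ was 36.8% at score 0, 48.5% at score 1, 38.9% at score 2 and 51.1% at score 42. In naked DNA it was 48.3%, 66.4%, 53.3% and 68.7%. Most of the low-score rows thus had score 1, whose base make-up lay near that of score 42, and score 0 rows held less guanine.

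Low-score rows were gathered in few places. The Morisita index, the chance that a pair of rows falls in the same 10 kb window relative to an even spread, is 1 for a random spread. Each position can be listed only 1 time per strand, so a dense repeat can fill up and the index can then fall with the number of rows a library holds. For low-score rows it was 69.2 ± 19.3 with solvent (lowest 23.7, median 72.9, highest 91.4), 50.2 ± 10.6 with TMZ (lowest 33.7, median 50.3, highest 64.5) and 42.8, 50.2 and 48.5 in naked DNA replicates 1, 2 and 3. For score 42 rows it was 1.23 to 1.33 in every library. The difference was 5.45 ± 0.48 on the log2 scale, in the same direction in 27 of 27 libraries (permutation test by sign flips, p = 1e-05, the smallest they can give). Both classes were chosen by a score that itself depends on repeated sequence. The direction of this difference is thus partly fixed by that choice, and the p-value is no separate evidence for it. The most rows in any single window were 729 to 3905 for low score and 21 to 198 for score 42.

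The densest 1% of the windows that held any low-score row, 2688 windows, held 32.1% of the low-score rows and 0.0836% of score 42 rows. Of these windows, 1708 held no score 42 row in any library. The share in dense windows was 32.1% ± 2.52 with solvent and 32.1% ± 1.19 with TMZ, and no difference was found (exact permutation p = 0.987). Sets went different ways: TMZ minus solvent was 2.95 points within set 1, 0.19 within set 2 and -1.44 within set 3. Without set 1 the solvent share was 33.1% ± 0.83 (n = 10). On the log2 scale the Morisita index was lower with TMZ by 0.42 (exact permutation p = 0.042, adjusted p = 0.257), a difference of 0.19 within set 1, -0.32 within set 2 and -0.61 within set 3. Without set 1 it was -0.54 (permutation p = 0.00014). With the dense windows left out the difference was -0.04, and the unadjusted permutation p no longer lay at or below 0.05.

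**Figure D3:**
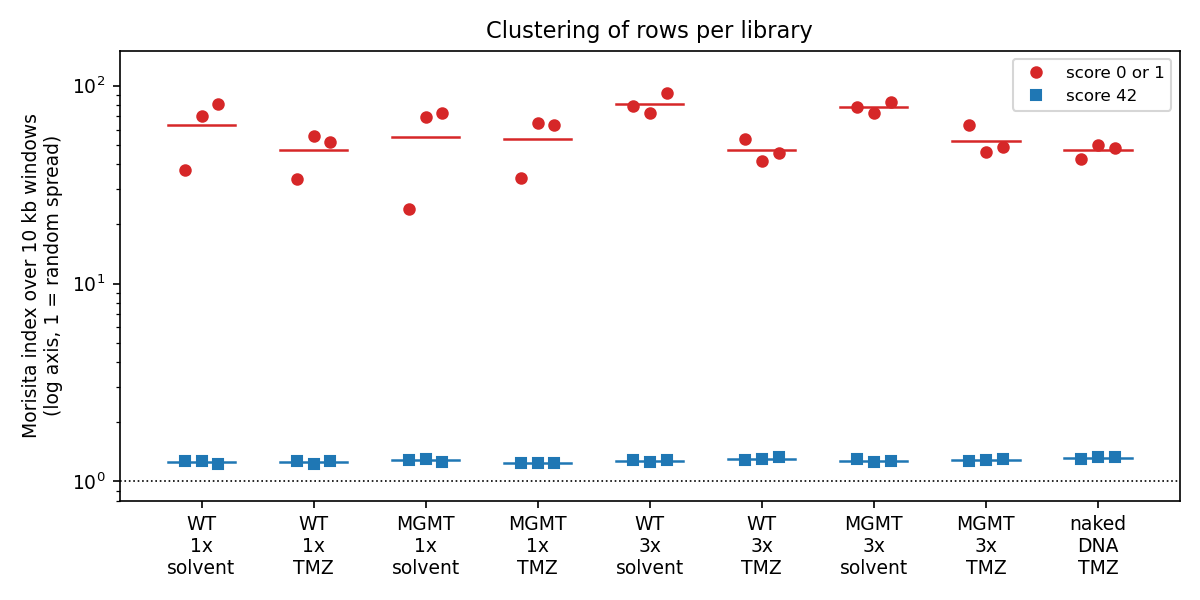
Morisita index of rows over 10 kb windows (vertical log axis; 1 is a random spread, dotted) for low-score rows and for score 42 rows of the same 27 libraries, by group. Points are libraries in replicate order and bars are group means; every low-score point lies at 23.7 or above and every score 42 point at 1.33 or below.

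By chromosome, low-score rows were most over-represented on chromosome 21, with 5.17% of them against 1.15% of score 42 rows. Chromosome 1 held 13.4% against 9.52%, chromosome 9 held 5.95% against 3.79%, and chromosome 16 held 4.44% against 2.91%. Chromosome 14 went the other way, with 1.80% against 3.01%, as did chromosome 2, with 6.86% against 9.62%. Within 100000 bases of a chromosome's end lay 1.27% of low-score rows with solvent, 1.39% with TMZ and 1.53% in naked DNA, and 0.0585%, 0.0620% and 0.0672% of score 42 rows. Genes of the RefSeq table divided both kinds of row differently: 21.9% of low-score rows and 48.1% of score 42 rows lay in protein-coding genes, 6.05% and 0.705% in pseudogenes, and 61.8% and 38.6% in no gene. Positions also recurred more: 3.47% to 10.7% of a library's low-score rows were listed again in another library of its group, against 0.14% to 2.78% of score 42 rows.

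The top 0.1% of windows joined into 91 blocks of 286 windows, which held 12.7% of low-score rows; 53 of them contained no gene of the table. The 12 blocks with the highest share held 7.78%. First stood the ribosomal DNA of chromosome 21, at chr21:8380001-8480000 with 1.80% of low-score rows and chr21:8200001-8260000 with 1.08%. Between them came chr1:143180001-143270000, a pentamer-rich satellite with 1.70%. Further pentamer-rich blocks in the first 12 were chr4:49090001-49160000 (0.479%), chr1:125160001-125190000 (0.420%), chr16:46380001-46410000 (0.382%) and chr16:34570001-34600000 (0.248%). In the block of chromosome 4 the sequence repeated with a period of 5 bases, 74.9% of positions being equal to the base 5 positions on. Blocks with a period of 171 bases lay on chromosome 13, at chr13:17230001-17420000 (0.362%), chr13:16320001-16520000 (0.335%) and chr13:16540001-16700000 (0.265%). The REXO1L copies at chr8:85710001-85830000 held 0.465%, and the 5S ribosomal RNA genes at chr1:228610001-228650000 held 0.250%.

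A test of each 10 kb window showed where low-score rows moved under TMZ relative to the other low-score rows of a library. Of 23058 windows tested, 6009 passed (26.1%), 3997 higher under TMZ (17.3%) and 2012 lower (8.73%), by limma voom with Benjamini-Hochberg adjustment at 0.05. Score 42 rows passed in 35931 of 251031 windows (14.3%). Among the 2688 dense windows 587 were higher and 239 lower (30.7% in all). Counts for a kind of repeat are to be read against these shares. Leaving out set 1 left 22084 windows, of which 2950 were higher (13.4%) and 1865 lower (8.45%). The median difference over all windows tested was 0.03 on the log2 scale.

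Several gene arrays took a larger share of low-score rows under TMZ. The blocks with DUX4 copies, tandem copies of a double homeobox gene near the ends of chromosomes 4 and 10, also hold sequence outside the genes; they held 0.111%, 0.206% and 0.363% of low-score rows in WT cells given solvent 1 time and 0.39%, 0.345% and 0.512% in WT cells given TMZ 1 time. In MGMT cells these were 0.114%, 0.177% and 0.309% with solvent and 0.334%, 0.328% and 0.455% with TMZ. Each TMZ library was above the solvent library of the same line and replicate number, although the highest solvent value, 0.363%, exceeded the lowest TMZ value, 0.328%. After 3 exposures the solvent values were 0.163%, 0.284% and 0.229% in WT and 0.176%, 0.296% and 0.261% in MGMT cells, and the TMZ values 0.495%, 0.537% and 0.615% in WT and 0.460%, 0.550% and 0.653% in MGMT cells. In naked DNA they were 0.562%, 0.699% and 0.672%. All 11 windows of these blocks were higher under TMZ, with a median difference of 1.83 on the log2 scale, and all 11 without set 1, with a median of 1.65. Of rows at guanine alone, 9 of the 11 were higher, against 10.8% of all windows tested on such rows.

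Arrays of small RNA genes and the REXO1L copies, which resemble a gene for an RNA exonuclease, went the same way. The 5S ribosomal RNA genes rose in 4 of 4 windows (median 0.88 on the log2 scale; 0.178% of low-score rows with solvent, 0.307% with TMZ, 0.305% in naked DNA). The U2 genes, which encode an RNA of the spliceosome, at chr17:43230001-43300000, rose in 7 of 7 (median 0.93). The tRNA genes at chr1:161440001-161470000 rose in 3 of 3 (median 0.79), and the REXO1L copies in 14 of 15 (median 0.68). Without set 1 these counts were 4, 7, 3 and 14. The SNAR genes, which encode small noncoding RNAs on chromosome 19, rose in 8 of 10 windows, but in 2 of 10 without set 1. Among rows at guanine alone they rose in 4 of 10. In all of these the low-score rows were richer in guanine with TMZ, as in the 5S genes, with 29.4% at guanine with solvent, 59.3% with TMZ and 74.1% in naked DNA. Rises were not limited to these arrays. The 21 blocks of no named kind, on 13 chromosomes, held 0.723% of low-score rows with solvent, 0.989% with TMZ and 1.19% in naked DNA, and 22 of their 31 windows were higher and 2 lower (median 0.82); without set 1, 21 were higher and 6 lower.

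Simple repeats went down. Pentamer-rich satellite, 13 blocks of 47 windows, held 3.13%, 5.07% and 5.89% of low-score rows in WT cells given solvent 1 time and 2.87%, 4.28% and 2.90% in WT cells given TMZ 1 time. In MGMT cells the values were 2.42%, 5.15% and 5.56% with solvent and 3.19%, 4.65% and 4.08% with TMZ. The low first value of each solvent group belongs to set 1, and in MGMT cells of that set TMZ was the higher. After 3 exposures, solvent gave 5.69%, 5.62% and 6.05% in WT and 5.96%, 5.42% and 5.92% in MGMT cells, and TMZ 3.49%, 2.26% and 2.17% in WT and 4.2%, 2.84% and 2.38% in MGMT cells. After 3 exposures no TMZ library reached the lowest solvent library. Naked DNA had 2.91%, 2.16% and 2.14%. Of the 47 windows 40 were lower under TMZ and 2 higher, with a median of -0.63; without set 1, 45 were lower and 0 higher. Guanine was scarcer here than elsewhere, at 15.7% with solvent, 24.5% with TMZ and 35.0% in naked DNA.

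Telomeric TTAGGG repeats, at the ends of 4 chromosomes, held 0.472% ± 0.187 of low-score rows with solvent (0.238% to 0.806%), 0.294% ± 0.075 with TMZ (0.180% to 0.420%) and 0.229% ± 0.069 in naked DNA. All 4 windows were lower under TMZ (median -0.52), as they were without set 1 (median -0.47) and among rows at guanine alone (median -0.96; 6.34% of all windows tested on such rows were lower). Individual positions were also counted within the hexamer. Over 472 fully read units, the guanines of TTAGGG, from the first to the third, were listed in 29.9%, 33.2% and 32.9% of units with solvent. With TMZ they were listed in 41.4%, 54.6% and 51.8%, and in naked DNA in 56.0%, 63.0% and 64.0%. Single libraries overlapped widely, the first guanine being listed in 7.20% to 65.9% of units with solvent and in 20.3% to 61.9% with TMZ, and these rates are not scaled for the number of rows. In set 1 all 3 guanines were lower with TMZ than with solvent, the first at 61.9% against 65.9% in WT and 44.7% against 53.6% in MGMT cells. The first thymine went from 42.1% with solvent to 37.9% and 32.1%. In one library, WT cells given solvent 1 time in set 1, it was listed in 73.5% of units.

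The 171-base satellite, 27 blocks of 117 windows, held similar shares, with 2.08% of low-score rows with solvent, 2.15% with TMZ and 2.06% in naked DNA. Of its windows 7 were higher under TMZ and 0 lower (5.98%, below the 26.1% of all windows), and none of the 19, 20 and 16 windows in the 3 blocks named above passed. Among rows at guanine alone 0 of the 117 windows passed. Blocks with a period of 147 bases had 0 of 13 windows passing, with 0.465% of low-score rows with solvent and 0.436% with TMZ. The guanine share of the 171-base satellite still went from 19.3% to 44.3% and 60.6%, and that of the 147-base blocks from 21.9% to 48.1% and 64.6%. A pseudogene copy of the mitochondrial genome at chr1:620001-640000 had 0 of 2 windows passing, with 0.212% of low-score rows with solvent and 0.161% with TMZ. Without set 1, 1 of the 2 was lower under TMZ, and among rows at guanine alone 2 of 2 were lower (median -0.68 on the log2 scale). At these scores rows from mitochondrial DNA itself cannot be told apart from rows of the copy.

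**Figure D4:**
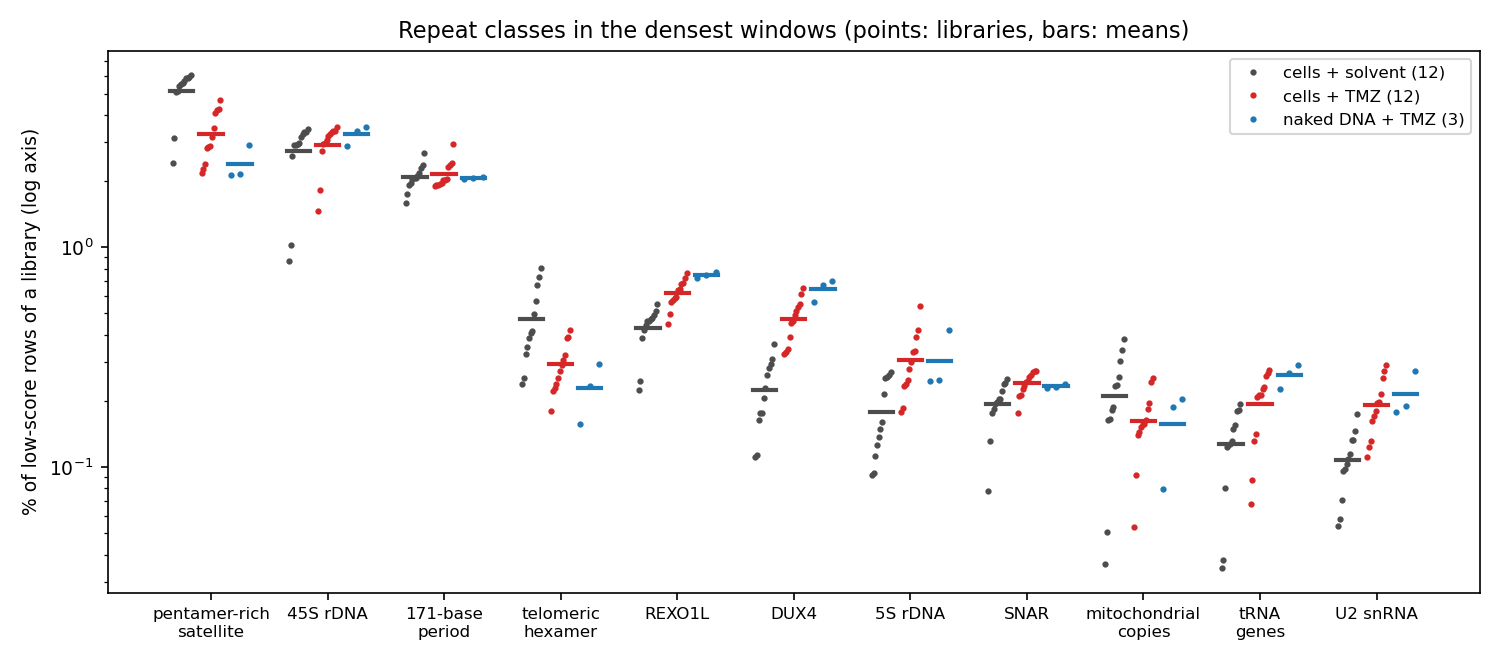
Percent of a library's low-score rows in each kind of repeat of the densest blocks (vertical log axis), with 12 solvent, 12 TMZ and 3 naked DNA libraries as points and bars as means. The DUX4 blocks go from 0.224% to 0.473% and 0.644%, pentamer-rich satellite from 5.16% to 3.28% and 2.40%, and the 171-base repeat stays between 2.06% and 2.15%; the solvent points far below their group in several classes belong to set 1.

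The blocks around the 45S ribosomal RNA genes, which RNA polymerase I transcribes into the precursor of the 18S, 5.8S and 28S RNAs, held 2.74% ± 0.87 of low-score rows with solvent and 2.93% ± 0.64 with TMZ. Set 1 was lowest here, with 1.02% and 0.863% with solvent and 1.82% and 1.46% with TMZ. Of 16 windows 7 were higher under TMZ and 0 lower; without set 1, 7 were higher and 3 lower. Among rows at guanine alone 5 were higher and 5 lower (median -0.0063 on the log2 scale). Of all windows tested on such rows 10.8% were higher and 6.34% lower. The change was uneven along the repeat. The transcribed 45S units took 7.69%, 5.01% and 8.05% of the block's rows in WT cells given solvent 1 time and 17.3%, 11.9% and 16.4% in WT cells given TMZ 1 time. In MGMT cells the values were 9.82%, 4.43% and 6.88% with solvent and 16.9%, 10.2% and 14.5% with TMZ. After 3 exposures they were 4.10% to 6.65% with solvent and 14.9% to 25% with TMZ. In naked DNA they were 22.5%, 25.1% and 25.7%. No TMZ library overlapped a solvent library.

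Per length, in rows per kb per 1000 rows of the blocks, the 18S genes had 2.0 ± 0.56 with solvent, 5.07 ± 1.2 with TMZ and 6.18 ± 0.48 in naked DNA. The 28S genes had 1.52 ± 0.38, 4.33 ± 1.08 and 6.02 ± 0.69. Outside these units, the density was 7.82 ± 0.15, 6.86 ± 0.38 and 6.30 ± 0.14. That part is mostly spacer, but it also holds the pseudogenes RNA18SP5 and RNA5-8SP10 at chr21:8250001-8260000. With solvent the genes were thus listed less densely than the rest of the blocks, and in naked DNA at nearly the same density. No test was run on this split. The GC content of the bases read moved with it: 63.5% in 18S, 73.5% in 28S and 55.6% outside the units; its part in the result was not tested.

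How often a guanine was listed under TMZ differed with the base before it. In stretches of at least 30 fully read bases of the 91 blocks, 120175 positions in all, guanines after adenine were listed in 10.6% of positions with solvent, 20.3% with TMZ and 30.1% in naked DNA. Guanines after guanine were listed in 9.14%, 21% and 33.2%. Guanines after cytosine went from 13.1% to 15.5% and 22.3%, and those after thymine from 10.7% to 13.9% and 22.6%. Positions at the other bases were listed in 12.6%, 10.8% and 10.3%. A position counted as read only if a row of some library, TMZ libraries included, listed it on either strand. The positions are thus chosen partly by the listing that is compared, and how this bears on the rates was not tested. These rates are not scaled for the number of rows, and naked DNA replicate 1, of set 1, held the most rows of all libraries. Guanines after cytosine were listed in 37.3%, 13.6% and 16% in naked DNA replicates 1, 2 and 3, and those after thymine in 37.9%, 14.8% and 15.3%. Without replicate 1 (a comparison added after seeing the data) the naked DNA means were 14.8% after cytosine, 15% after thymine, 24.5% after adenine, 27.8% after guanine and 6.37% at the other bases. The log2 ratio of the rate after a purine to that after a pyrimidine was 0.52 ± 0.33 with TMZ and -0.20 ± 0.13 with solvent, a difference of 0.72 (exact permutation p = 3.7e-05, adjusted p = 0.0006 over 32 comparisons). This ratio was added after the data were seen. The difference was 0.19 within set 1, 0.62 within set 2 and 0.98 within set 3, and 0.82 without set 1. The ratio was not alike in all kinds of repeat. In pentamer-rich blocks it was -0.0041 ± 0.28 with TMZ (-0.44 to 0.34) and -0.58 ± 0.15 with solvent, in 45S blocks 0.73 ± 0.24 and -0.11 ± 0.24, and in blocks with a period of 147 bases 0.92 ± 0.23 and 0.019 ± 0.30. Over all blocks the ratio was 0.38 larger after 3 exposures than after 1 among TMZ libraries (exact p = 0.040, adjusted p = 0.218), and 0.25 lower in MGMT than in WT cells (exact p = 0.11).

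**Figure D5:**
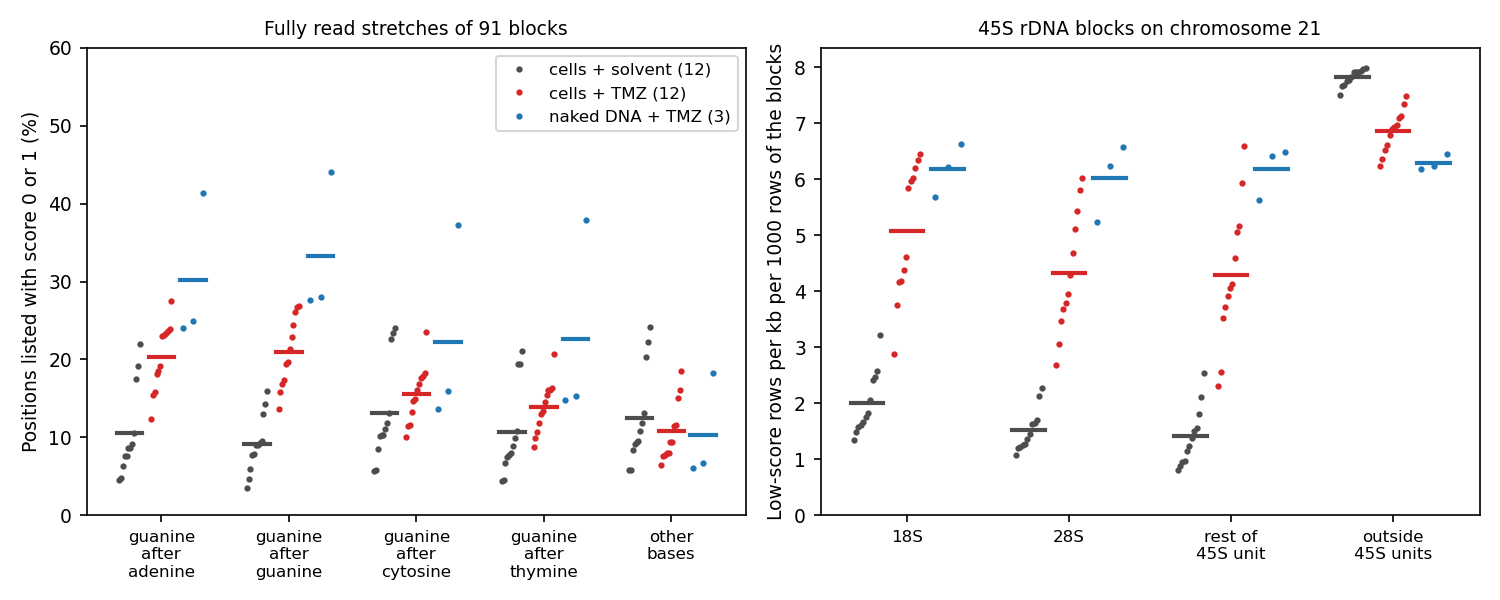
Left, percent of fully read positions listed with score 0 or 1, for guanines by the base on their 5′ side and for other bases; right, low-score rows per kb per 1000 rows of the 45S ribosomal DNA blocks, by part. Points are libraries and bars means; guanines after guanine go from 9.14% with solvent to 21% with TMZ and 33.2% in naked DNA, and 28S from 1.52 to 4.33 and 6.02 rows.

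Of 23058 windows tested, 6009 passed (26.1%), but few of them had no overlap between 12 TMZ and 12 solvent libraries, 36 higher and 1 lower. Single windows were named by size among these few. The largest rise was at chr8:143860001-143870000 in EPPK1, which encodes the repeat-containing cytolinker epiplakin, with 81.9 ± 34.1 low-score rows per 1000000 with TMZ and 12 ± 7.83 with solvent (log2 difference 2.58 ± 0.28 SE, limma adjusted p = 1.5e-07). Next came chr10:133660001-133670000 with DUX4L28 and DUX4L25, at 335 ± 104 against 87.0 ± 34.6 (2.01 ± 0.18, limma adjusted p = 1.3e-09). A window of ribosomal DNA, chr21:8250001-8260000, with the pseudogenes RNA18SP5 and RNA5-8SP10, had 1295 ± 440 against 332 ± 103 (1.95 ± 0.15, limma adjusted p = 4.5e-10). The others were chr16:31100001-31110000 in BCKDK, which encodes a kinase of branched-chain amino acid breakdown (33.4 against 8.26; log2 1.95), and chr19:29900001-29910000 in no gene (24.0 against 5.18; log2 2.0). The latter did not pass among rows at guanine alone (limma adjusted p = 0.052). It held 232 low-score rows over all libraries, and 0 to 7.69 per 1000000 with solvent. No solvent library had more than 855800 low-score rows. A window enters the test with at least 10 rows in at least 3 libraries. This window probably entered through TMZ libraries alone, so its rise is partly fixed by the filter. The only fall was chr11:108360001-108370000, in the kinase gene ATM and C11orf65, with 23.7 ± 5.17 against 48.5 ± 12.2 (-1.02 ± 0.18, limma adjusted p = 0.00021).

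Between MGMT and WT cells given TMZ, 1 of 23058 windows passed (0.00434%), by limma voom, and 963 had an unadjusted p under 0.05; score 42 rows passed in 1478 windows (0.589%). It lay at chr20:26600001-26610000, in no gene and in a block of the 171-base satellite, with 200 ± 43.8 rows per 1000000 in MGMT and 402 ± 58.8 in WT cells (log2 -1.0 ± 0.17, limma adjusted p = 0.019). It did not pass without replicate 2 or without replicate 3, when no window passed, nor among rows at guanine alone (limma adjusted p = 0.0501). Other alternatives gave more windows, most of them higher in MGMT cells. Without replicate 1, 14 of 21204 passed (12 higher, 2 lower), and without set 1, 11 of 22084 (8 higher, 3 lower). With a replicate block 148 of 23058 passed (110 higher, 38 lower).

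A pair of repeats differed between the lines without passing in the fit without a replicate block, and were picked out after their values were seen. The 5S genes held 0.094%, 0.150% and 0.137% of low-score rows in WT and 0.092%, 0.270% and 0.263% in MGMT cells given solvent 1 time, and 0.160%, 0.113% and 0.126% against 0.256%, 0.258% and 0.216% after 3 exposures to solvent. With TMZ given 1 time the values were 0.177%, 0.186% and 0.249% in WT and 0.279%, 0.338% and 0.39% in MGMT cells, and with TMZ given 3 times 0.234%, 0.240% and 0.301% against 0.333%, 0.420% and 0.541%. Except in the solvent libraries of set 1, MGMT values were above all WT values of the same treatment and exposure number. Naked DNA had 0.250% and 0.247% in the replicates from WT cells and 0.420% in that from the MGMT line. The 4 windows differed by 0.70 to 0.80 on the log2 scale with TMZ, with a smallest limma adjusted p of 0.438. With a replicate block all 4 passed (smallest limma adjusted p = 1.9e-05), so the call depends on whether same-numbered libraries are treated as pairs. Telomeric repeats went the other way, at 0.468% ± 0.187 in WT and 0.298% ± 0.084 in MGMT cells (n = 12 each, treatments pooled). With TMZ the 4 windows differed by -0.42 to -0.25 on the log2 scale. The limma adjusted p was 0.9995 in each of them, and the smallest unadjusted limma p was 0.040. With a replicate block 1 of these 4 windows passed (limma adjusted p = 0.023). The naked DNA replicates had 0.235%, 0.294% and 0.157%, lowest in the MGMT line. Both differences were also present in cells given solvent.

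Rows were less even between strands than score 42 rows. Of low-score rows 47.5% ± 1.36 lay on the plus strand with solvent, 49.5% ± 1.04 with TMZ and 50.4% ± 0.41 in naked DNA, against 49.98% to 50.14% of score 42 rows. In single repeats the strand turned over. In the block at chr2:87410001-87430000, with a period of 26 bases, 85.9% of rows lay on the plus strand with solvent, 48.6% with TMZ and 23.5% in naked DNA. The other 4 blocks of that period went the opposite way, as at chr15:20100001-20110000 with 16.8%, 48.5% and 76.5%. In the 171-base satellite the plus strand held 40.9% with solvent, 50.4% with TMZ and 54.2% in naked DNA, and in the 5S genes 39.0%, 53.4% and 50.8%.

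Gene families with near-identical copies were mostly listed at low score. The share of a family's rows with score 0 or 1, averaged over 27 libraries, was 95.1% in USP17L (ubiquitin-specific peptidases), 89.2% in NOTCH2NL, 88.2% in DUX4, 87.4% in symbols starting SMN, which include SMNDC1, a gene outside the near-identical pair, 86.2% in NPIP and 85.6% in RGPD. It was 84.0% in FAM72, 82.9% in GOLGA8, 81.5% in GOLGA6, 81.3% in NBPF, 78.1% in SRGAP2 and 70.3% in POTE. The amylase genes (AMY) had 65.1%, PRAMEF 65.8%, the Fc gamma receptors (FCGR) 51.8%, LRRC37 51.4%, ANKRD36 51.3%, TBC1D3 50.7%, SPATA31 48.1% and ANKRD30 35.5%. Of genes with mostly unique sequence, EGFR had 2.67%. In ACTB and GAPDH no library held more than 1 low-score row, so no share is given. RB1 stood apart with 21% ± 15.7, from 7.56% to 64.7%.

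The guanine share of low-score rows in these families rose much as it did elsewhere. In NBPF it was 23.2% with solvent, 51.8% with TMZ and 68.2% in naked DNA. In NOTCH2NL, which arose from a partial copy of the receptor gene NOTCH2, it was 19.7%, 50.4% and 68.0%. In DUX4 genes it was 30.6%, 56.6% and 67.7%, and in USP17L 29.99%, 53.5% and 71.4%. In TBC1D3 it was 28%, 62.9% and 77.7%, the highest of the 20 families in naked DNA. No test between families was run.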

How the data were processed

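Per the file headers and labels, O6-MeG-seq was run on 27 libraries in 9 groups of 3. The deposited lists have no header; each row gives a chromosome, a position counted from 0 (printed here from 1), a strand, a base and a whole-number score, the authors' value from 0 to 42 with no stated normalization. Per the submitters' processing notes, FastQC 0.11.9, Trimmomatic 0.38 and 0.39, cutadapt, Bowtie2 2.3.5.1, GATK 4.2.0.0, SAMtools 1.12 and bedtools 2.29.2 were used with GRCh38; which step made the lists is not given in the sources used here. Each position and strand occurs 1 time per library, so rows are distinct positions and not reads.

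Low-score rows had score 0 or 1 on chromosomes 1 to 22. Library shares were tested by exact two-sided permutation, stratified by the other factors, with 27 comparisons adjusted together (Benjamini-Hochberg); 5 added comparisons of a purine ratio were adjusted in the family of 32. Windows of 10 kb with at least 10 rows in at least 3 of 24 cell libraries were fitted with limma 3.58.1 voom (R 4.3.3; 8 group means, sizes from trimmed means). Tested on simulated data for TMZ against solvent, this recovered 80.8% of 177 windows changed 2-fold, with 7 false calls among 150, on 21760 windows. The simulated dispersion was 0.05, and whether these rates hold at the spread between the real libraries was not tested. Dense windows are the top 1%, and the top 0.1% were joined into blocks. Blocks were given a kind by at least 2% GGAAT, 10% TTAGGG, a period of 171, 340, 147 or 26 bases, or the genes in them; the first 3 periods were the most frequent over 100 bases in the blocks themselves. The 12 largest blocks, up to 5 non-overlapping windows per direction by size of change and a list of 20 gene families and 6 single genes were to be named, of which 2 single genes are not reported here. Other kinds of repeat, the last sequence and the comparison without set 1 were chosen after the data were seen, and all members and lists were chosen with earlier results of these data known. Alternatives were score limits, window sizes, filters, other scaling, left-out replicates and a replicate block. Python 3.11.15 with numpy 2.4.6, scipy 1.17.1 and pandas 2.3.3 was used.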

Additional observations from a re-analysis of the deposited data

Results flagged for a closer look

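The effect of TMZ on the guanine share of low-score rows differed between exposure numbers: it was 36.0 percentage points after 3 exposures and 17.6 after 1, a difference of 18.4 (permutation test of the interaction, p = 0.0029, adjusted p = 0.029 over 10 tests). Set 1, which held cells of the single exposure only, was part of this test, and the interaction was not tested without it. Low-score rows on unplaced and alternate contigs, which the comparisons did not use, also carried the signal: 46.1% ± 9.75 (SD, n = 12) lay at guanine with TMZ, against 21% ± 2.17 with solvent (highest 27%) and 62.6% ± 0.33 in naked DNA (n = 3). On these contigs low-score rows were 69.7% of all rows with TMZ and 69.0% with solvent.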

How the results depend on the processing

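For single values a call here is an unadjusted permutation p at or below 0.05. Some first calls did not pass after adjustment: log2 clustering of TMZ against solvent and guanine share of naked DNA (adjusted permutation p = 0.257 each). Nor did the low-score share (0.180), guanine share (0.0675) and purine ratio (0.218) of 3 against 1 exposure. Of 280 recomputed values 207 kept their direction and their side of the threshold, 29 changed sign, 22 lost a call, 11 gained one and 11 counts moved. Of the lost calls, 12 came from leaving out a replicate in comparisons that cannot pass at that size (3 against 1 exposure and naked DNA), and the permutation tests of MGMT against WT without a replicate cannot pass either. The higher guanine share under TMZ, the stronger clustering and the lower guanine share of low-score rows against score 42 rows held under every alternative run for them; no value that was called at first changed sign, but 1 value changed sign and then passed (3 against 1 exposure without set 1). The cause was not tested for any change.

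With score 0 alone, the sign turned for the low-score share of MGMT against WT with solvent (0.23 points), its guanine share (-0.063), the guanine gap of 3 against 1 exposure (1.94), log2 clustering of naked DNA against WT with TMZ (-0.24), and the dense share of 3 against 1 exposure (1.91) and of naked DNA (-3.21). The guanine share of naked DNA against WT with TMZ lost its call (9.67), as did log2 clustering of TMZ against solvent (-0.95), while the guanine gap of TMZ against solvent gained one (10.6). With scores under 10, the sign turned for log2 clustering of 3 against 1 exposure (-0.18) and of naked DNA (-0.092) and for the dense share of naked DNA (-0.54). With 5 kb windows log2 clustering turned for 3 against 1 exposure (-0.030) and naked DNA (-0.033); with 100 kb windows TMZ against solvent lost its call (-0.21), as it did without dense windows (-0.036), where the guanine share of naked DNA lost its call too (14.6). In the top 0.1% of windows the dense share of 3 against 1 exposure was 0.26.

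Without set 1 (chosen after seeing the data) the guanine gap of TMZ against solvent gained a call (3.38) and turned for 3 against 1 exposure (1.23; exact p = 0.010) and for MGMT against WT with solvent (-0.63). Log2 clustering turned for 3 against 1 exposure (-0.24) and naked DNA (-0.0051), the dense share for naked DNA (-0.16) and the purine ratio for naked DNA (0.11). The guanine share of naked DNA lost its call (11.6), as did the purine ratio of 3 against 1 exposure (0.30). MGMT against WT with TMZ then gave 11 windows.

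Same-numbered libraries were not paired by the rule: across 24340 windows the correlation of their deviations exceeded 0.1 in 9 of 12 genotype pairs (0.05 to 0.65), 6 of 12 treatment pairs (0.02 to 0.50) and 1 of 6 exposure pairs (-0.08 to 0.12), although each library correlated best with its own number in 12 of 12 genotype and 10 of 12 treatment comparisons. With the replicate block, calls appeared for the low-score share of TMZ against solvent (-5.20 points), also at guanine (-4.47) and elsewhere (-5.17), and for MGMT against WT with TMZ in guanine share (-5.68), guanine gap (-0.47), log2 clustering (0.16) and purine ratio (-0.25), and with solvent in dense share (-1.56). The low-score share of 3 against 1 exposure lost its call (-10.3; 6 pairs). With the block 8317 windows passed for TMZ and 148 for MGMT against WT.

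Windows passing for TMZ against solvent were 6009, 3894 by limma-trend with median-of-ratios sizes, 2147 of 12528 on rows at guanine, and 2029 to 4140 without 1 replicate number. For MGMT against WT they were 1, 0 by limma-trend, 4 at guanine and 0 to 14 without 1 replicate number.

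Leaving out each replicate number in turn gave these ranges. For 3 against 1 exposure: low-score share -15.4 to -4.90, guanine share 16 to 21.5, gap -2.04 to 1.16, log2 clustering -0.36 to 0.26, dense share -1.47 to 0.96, purine ratio 0.27 to 0.46; with 2 against 2 per line these tests cannot pass (smallest exact p = 0.0556), nor can those of MGMT against WT of the same size or of naked DNA with 2 against 4. For MGMT against WT with solvent: low-score share -2.15 to 1.10, guanine share -0.23 to 0.84. For TMZ against solvent: low-score share -7.28 to -1.33 (at guanine -5.87 to -2.01, elsewhere -7.49 to -0.80), gap 0.61 to 3.55, log2 clustering -0.56 to -0.30, dense share -0.56 to 0.48. For naked DNA: guanine share 12.3 to 16.8, gap -0.071 to 0.34, log2 clustering -0.0011 to 0.032, dense share -0.042 to 0.51, purine ratio -0.22 to 0.086. Rows are distinct positions, so dense repeats can be saturated, and libraries with fewer rows leave low windows untested.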
